A study of Mus musculus with 24 samples.

Results

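The Slc22 genes encode membrane transporters for organic anions, cations and zwitterions, and 9 of them are described here in the kidney of mouse embryos at embryonic day 18.5: Slc22a2, Slc22a6, Slc22a7, Slc22a8, Slc22a12, Slc22a13, Slc22a19, Slc22a26 and Slc22a30. They were taken by symbol from the deposited count tables of 54393 genes, which hold 26 genes with a symbol that starts with Slc22a, so 17 others remain. Slc22a26 was picked for its low level in the libraries labelled 3XKO, so its values there are a description with no test. Whole kidneys were sequenced as bulk poly(A) RNA in 24 libraries. The groups are 3 Dmrt2 KO libraries against 3 controls, 6 libraries with Hmx3 and Hmx2 knocked out (Hmx3 Hmx2 KO) against 6 controls, and 3 libraries labelled 3XKO, for Dmrt2, Hmx3 and Hmx2 together, against 3 controls. All controls are littermates. Which alleles were used is not given in any label. Hmx3 Hmx2 control replicates 1 to 3 are marked WT in their deposited names, while the names of the other controls give no genotype. The study concerns these factors in intercalated cells, which handle acid and base in the collecting duct.

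Slc22 proteins of the kidney sit mainly in the proximal tubule, the segment that reabsorbs most of the filtered solutes and secretes drugs, toxins and waste anions into the urine. Uptake from blood across the basolateral membrane runs through Slc22a6 (OAT1) and Slc22a8 (OAT3) for anions and Slc22a2 (OCT2) for cations. Exit or reabsorption at the luminal side involves other members, among them the urate exchanger Slc22a12 (URAT1). Many of these genes gain expression around birth, and in adult rodents several differ between the sexes.

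Total counts ran from 52286824 to 127339273 reads per library, and the 9 genes held 34 to 56206 reads each in any library. Levels are given in CPM, the reads of a gene after each library was brought to an equal total with TMM factors. Dmrt2 averaged 1.99 ± 0.37 CPM in Dmrt2 KO libraries and 13.7 ± 1.4 CPM in their controls (SD, n = 3 each). In the libraries labelled 3XKO, Dmrt2 was not low but higher, at 18.4 ± 0.75 CPM against 11.4 ± 0.73 CPM in their controls (SD, n = 3 each; log2 fold change 0.69, adjusted p = 0.0042). This level does not bear the label out, but the alleles are not described, so it cannot tell whether Dmrt2 function was lost. Hmx2 averaged 0.022 ± 0.026 CPM in Hmx3 Hmx2 KO libraries and 1.93 ± 0.30 CPM in their controls (SD, n = 6 each), and 0.0070 ± 0.012 CPM in libraries labelled 3XKO against 2.69 ± 0.54 CPM in theirs (SD, n = 3 each). The Hmx3 Hmx2 line was deposited in 2 tables, replicates 1 to 3 and replicates 4 to 6. Of the Dmrt2 KO libraries 1 of 3 expressed Y-linked genes, against 3 of 3 controls, while the Hmx3 Hmx2 line had 2 of 6 knockouts and 4 of 6 controls with them, and the line labelled 3XKO 2 of 3 and 2 of 3. The proximal tubule was well represented: its marker list of 26 genes summed to between 5335 and 7855 CPM in knockouts and between 5471 and 7059 CPM in controls.

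Per length of exon, Slc22a6 was the most abundant of the 9 in each group, and Slc22a26 or Slc22a7 the least. Slc22a6 took between 35.8% and 46.7% of the summed level of the 9 genes. Over the 24 libraries its level ranged from 65.7 to 129.8 CPM per kilobase (median 108.2). The next 5 genes had medians of 35.2 (Slc22a2), 30.1 (Slc22a12), 24.04 (Slc22a8), 18.8 (Slc22a13) and 18.7 (Slc22a19) CPM per kilobase. Slc22a30 had a median of 1.69, Slc22a7 of 0.79 and Slc22a26 of 0.54 on the same scale, so a gap of about an order of magnitude separates the upper 6 genes from the lower 3. Some neighbours in the order did not differ beyond their spread: the ranges of Slc22a19 and Slc22a13 overlapped in all 6 groups, and Slc22a2 and Slc22a12 in 3 groups. Slc22a6 did not overlap the gene below it in any group. The length used was the exon length given with the deposited counts. For Slc22a19 it is 5431 bases, against 1998 in the transcript with its longest coding sequence, while for Slc22a13 both are 2001. An order by transcript length was not computed, so the place of Slc22a19 holds only for the length used. The lowest and highest libraries differed 11.3-fold for Slc22a26, whose lowest values are in the libraries labelled 3XKO that it was picked from. Without those 3 libraries the span was 5.24-fold for Slc22a26, against 3.56-fold for Slc22a7 and 1.51-fold for Slc22a2.

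**Figure D1:**
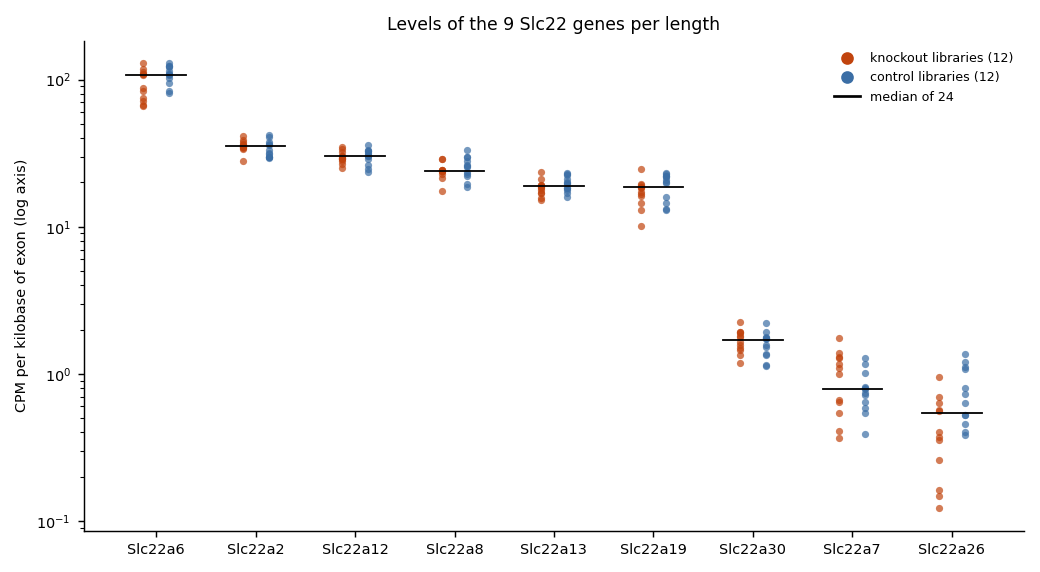
Level of each of the 9 Slc22 genes in every library, in CPM per kilobase of exon on a log axis, with knockout libraries at the left of each gene and control libraries at the right, and the median of 24 libraries as a line. Slc22a6 stands highest at a median of 108.2, and Slc22a26 spans 11.3-fold with the libraries labelled 3XKO, in which it was picked for its low level, and 5.24-fold without them.

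Few calls were made among the 9 genes, as among all genes. Genes were called at an adjusted p under 0.05 (edgeR, Benjamini-Hochberg over all genes tested). In Dmrt2 KO kidneys, 0 of 9 were called, where 0.444% of 19807 genes were, and 3 had an unadjusted p under 0.05, as 12.3% of all genes had. DESeq2 called 2 of them, Slc22a6 and Slc22a8. In kidneys of Hmx3 Hmx2 KO, 0 of 9 were called, where 0.021% of 19050 genes were, with 2 under an unadjusted p of 0.05 (4.93% of all genes) and 0 called by DESeq2. Of the 8 genes tested in libraries labelled 3XKO, 1 was called, Slc22a19, where 1.03% of 21537 genes were, and 3 had an unadjusted p under 0.05 (17.9% of all genes). The median log2 fold change of the genes counted was -0.06, -0.03 and -0.02 in these comparisons, against -0.0021, -0.0052 and 0.00098 over all genes tested. Differences between the knockout effects were tested in a fit of all 24 libraries, and 0 of 9 genes differed between the Dmrt2 and Hmx3 Hmx2 effects (background 0.154%). Of the 8 genes tested there, 0 differed between the 3XKO and Dmrt2 effects (background 0.394%) or between the 3XKO and Hmx3 Hmx2 effects (background 0.968%). For these differences the counts at an unadjusted p under 0.05 were 3, 0 and 3 (7.67%, 11.4% and 13.3% of all genes), and DESeq2 called 1 gene, Slc22a6, for the 3XKO minus the Hmx3 Hmx2 effect.

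**Figure D2:**
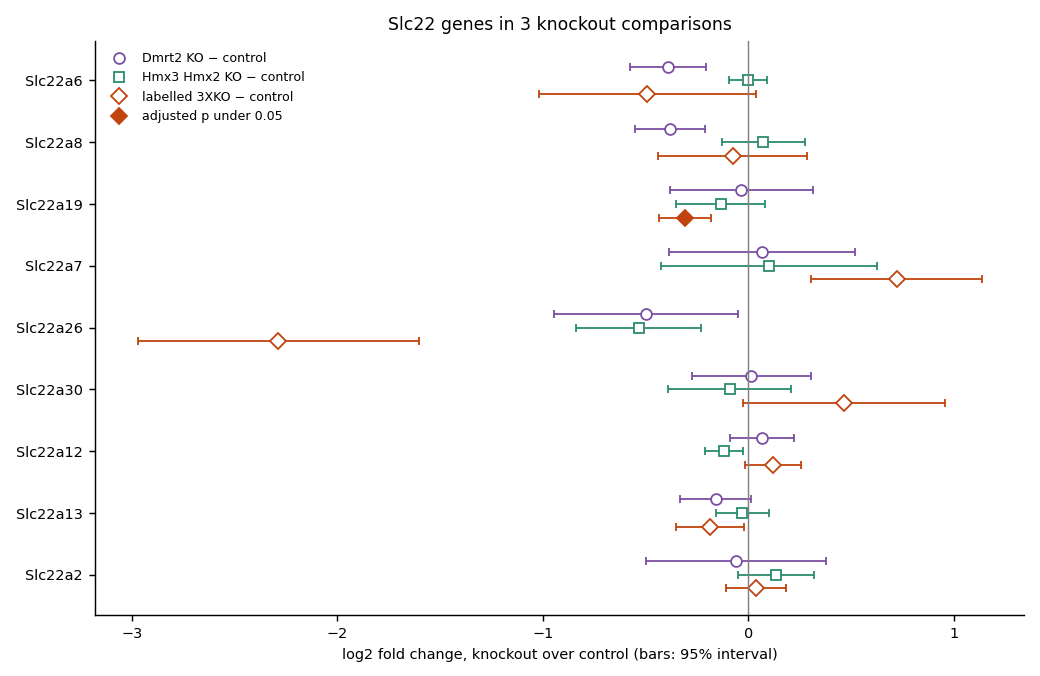
Log2 fold change of each gene, knockout over control, with its 95% interval, in the Dmrt2 KO, Hmx3 Hmx2 KO and labelled-3XKO comparisons. The filled mark is the called gene, Slc22a19 at -0.31 in libraries labelled 3XKO, and the lowest point is Slc22a26 there at -2.29, which has no test.

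Slc22a6 and Slc22a8, the basolateral anion exchangers, were lower in every Dmrt2 KO library than in every control, at 0.76 and 0.77 times the control level, without passing the adjusted threshold. Slc22a6 (mm39 chr19:8595403-8605663, plus strand) had 301.0, 286.0 and 261.9 CPM in Dmrt2 KO libraries, against 380.7, 325.0 and 406.7 CPM in controls. The log2 fold change was -0.39 (SE 0.08, 95% interval -0.58 to -0.21, adjusted p = 0.088). Slc22a8 (chr19:8568618-8589199, plus strand), which lies 6.2 kb upstream of Slc22a6, had 95.8, 93.6 and 83.99 CPM in Dmrt2 KO libraries, against 130.5, 108.7 and 116.2 CPM in controls. Its log2 fold change was -0.38 (SE 0.08, 95% interval -0.55 to -0.21, adjusted p = 0.062). The knockout and control libraries did not overlap for either gene, and 7.71% of all genes tested were lower without overlap in this comparison. Without control replicate 2, both genes were called, Slc22a6 at -0.48 (adjusted p = 0.014) and Slc22a8 at -0.44 (adjusted p = 0.033).

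Other measures differed between the same libraries. With the Y-linked level as a covariate, Slc22a6 and Slc22a8 both had a log2 fold change of -0.30 (adjusted p = 0.69 for each), and 1 of 3 Dmrt2 KO libraries but 3 of 3 controls expressed Y-linked genes. The proximal tubule list summed to 5335 to 5799 CPM in Dmrt2 KO libraries and 5471 to 6803 CPM in controls, with 15 of its 26 genes negative and a median of -0.11. Their part in the difference was not tested. In bulk tissue, fewer cells of a type and less RNA per cell cannot be told apart.

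In the other knockouts neither gene was called. Slc22a6 had 334.5, 270.0 and 351.1 CPM in libraries labelled 3XKO, against 517.0, 495.1 and 334.5 CPM in controls, where control replicate 3 falls among the knockouts. The log2 fold change was -0.49 (SE 0.20, adjusted p = 0.30), and it passed without that control at -0.67 (adjusted p = 0.018) and in the fit of all 24 libraries at -0.49 (adjusted p = 0.044). Slc22a8 had 93.6, 89.01 and 95.1 CPM in libraries labelled 3XKO, against 115.8, 101.0 and 77.0 CPM in controls, with a log2 fold change of -0.08 (95% interval -0.44 to 0.29). In the Hmx3 Hmx2 KO libraries, Slc22a6 ran from 430.3 to 515.1 CPM (median 440.7), against 428.2 to 490.2 CPM in controls (median 445.7), and these ranges almost coincide. Its log2 fold change there was -0.0018 (95% interval -0.094 to 0.091). Slc22a8 ran from 68.2 to 112.4 CPM (median 93.7) in the same knockouts, against 72.7 to 102.6 CPM in controls (median 90.7), which overlap, with a log2 fold change of 0.07. The Dmrt2 effect minus the Hmx3 Hmx2 effect was -0.39 for Slc22a6 (adjusted p = 0.56) and -0.46 for Slc22a8 (adjusted p = 0.47).

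The promoter windows of both genes are shown because the pair lies side by side and both were lower in Dmrt2 KO libraries. They run from 250 bases before to 50 after the start site in RefSeq (GRCm38.p6), which has such a window for 8 of the 9 genes. The windows were searched on both strands for the HNF4 site CAAAGTCCA and for the TATA box TATAAA. The HNF4 site was in 0 of the 8 windows and in 0.477% of 27025 promoters. The exact letters TATAAA, at any position, were in 1 of 8 windows and in 14.2% of all promoters. That window is of Slc22a13, which holds them on the opposite strand, as tttata. Variants of the motif were not searched, such as the tatataag in the Slc22a8 window. Capitals mark a run of 7 bases, the greatest length that both windows share, in chr19:8617746-8618045 for Slc22a6 and chr19:8592932-8593231 for Slc22a8, both on the plus strand of GRCm38.p6.
Slc22a6: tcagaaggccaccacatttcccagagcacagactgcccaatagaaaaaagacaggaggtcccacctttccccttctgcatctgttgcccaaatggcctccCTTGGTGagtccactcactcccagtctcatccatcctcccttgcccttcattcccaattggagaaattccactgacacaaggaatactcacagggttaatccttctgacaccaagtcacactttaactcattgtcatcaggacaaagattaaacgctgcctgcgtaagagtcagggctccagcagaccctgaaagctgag
Slc22a8: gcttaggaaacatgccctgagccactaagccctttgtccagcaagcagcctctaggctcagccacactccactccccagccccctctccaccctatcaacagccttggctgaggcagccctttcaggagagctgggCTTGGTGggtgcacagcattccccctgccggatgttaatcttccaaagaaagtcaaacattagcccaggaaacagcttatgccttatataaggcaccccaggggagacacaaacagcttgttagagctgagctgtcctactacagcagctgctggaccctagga
Aligned to each other, the windows were 65.5% identical over 258 paired bases, within the 55.7% to 69.9% spanned by all 28 pairs of windows.

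Hnf4a, a nuclear receptor gene of the proximal tubule, averaged 282.7 ± 18.2 CPM in Dmrt2 KO libraries and 276.9 ± 27.7 CPM in controls (SD, n = 3 each). Of 21 listed regulators of the proximal tubule, 0 of 21, 0 of 21 and 0 of 20 tested were called in the Dmrt2 KO, Hmx3 Hmx2 KO and labelled-3XKO comparisons, where the unadjusted p was under 0.05 for 7, 0 and 4, and for 12.3%, 4.93% and 17.9% of all genes.

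Slc22a7 (OAT2, chr17:46743109-46749383, minus strand), which carries anions and is best known in liver, was a rare transcript here and the least steady after Slc22a26. In libraries labelled 3XKO it had 2.90, 2.47 and 3.66 CPM (287, 234 and 426 reads), against 2.12, 1.70 and 1.68 CPM in controls (230, 182 and 184 reads). Every library labelled 3XKO was above every control, as 11.6% of all genes tested were. The log2 fold change was 0.72 (SE 0.19, 95% interval 0.31 to 1.14, adjusted p = 0.10), and DESeq2 called it (0.72, adjusted p = 0.014). Beside it, the 10 liver markers summed to 153 to 202 CPM in libraries labelled 3XKO and 132 to 163 CPM in controls. Of the 9 tested, 6 were negative and 3 positive, with a median log2 fold change of -0.25. Serpina1a was called higher (0.70, adjusted p = 0.042), while albumin (Alb) averaged 0.94 ± 0.65 CPM in libraries labelled 3XKO and 3.93 ± 1.91 CPM in controls (SD, n = 3 each). Their part in the result was not tested.

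Elsewhere Slc22a7 overlapped between groups. It had 2.09, 2.30 and 2.68 CPM in Dmrt2 KO libraries, against 2.67, 1.65 and 2.44 CPM in controls. Hmx3 Hmx2 KO libraries ran from 0.77 to 2.74 CPM (median 1.24), against 0.82 to 1.54 CPM in controls (median 1.30). The 3XKO effect minus the Dmrt2 effect was 0.65 (95% interval -0.18 to 1.48, adjusted p = 0.57).

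Slc22a12 (URAT1, chr19:6585875-6593062, minus strand) and Slc22a13 (OAT10, chr9:119022040-119038164, minus strand) are luminal exchangers of urate and of nicotinate and other anions. Slc22a12 had 65.1, 66.4 and 63.3 CPM in Hmx3 Hmx2 KO replicates 1 to 3, against 68.4, 71.97 and 73.6 CPM in the controls of the same table. These do not overlap, which held for 4.61% of all genes in that direction and table. In replicates 4 to 6 it had 76.0, 68.1 and 66.5 CPM, against 82.0, 68.4 and 74.0 CPM in controls, which overlap. The log2 fold change over both tables was -0.12 (SE 0.04, unadjusted p = 0.016, adjusted p = 0.94). It was 0.07 in Dmrt2 KO (68.3 to 79.2 CPM against 65.4 to 75.4 CPM in controls) and 0.12 in libraries labelled 3XKO (57.2 to 65.3 CPM against 53.4 to 59.8 CPM in controls), neither of them called. Of the 150-base windows of its transcript, 25.7% also lie in transcripts of Nrxn2, so reads there may have been counted for neither gene.

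Slc22a13 had a negative log2 fold change in each comparison, without a call. It had 33.9, 30.5 and 35.4 CPM in libraries labelled 3XKO, against 39.3, 40.4 and 34.2 CPM in controls, a log2 fold change of -0.19 (SE 0.08, adjusted p = 0.24). In Dmrt2 KO libraries it had 36.7, 37.1 and 33.9 CPM, against 35.6, 39.7 and 44.8 CPM in controls, with a log2 fold change of -0.16 (SE 0.08, adjusted p = 0.45). Its range was 31.3 to 46.9 CPM in Hmx3 Hmx2 KO libraries (median 38.4), against 32.03 to 46.4 CPM in controls (median 39.5), with a log2 fold change of -0.03 that was 0.02 in replicates 4 to 6 alone. Of its windows, 15.9% match the related pseudogene Slc22a13b-ps.

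Slc22a19, Slc22a26 and Slc22a30 belong to a run of related anion transporter genes on chromosome 19. In the deposited coordinates Slc22a19 (chr19:7650426-7688675), Slc22a26 (chr19:7758406-7780032) and Slc22a30 (chr19:8312735-8382475) are all on the minus strand, and Slc22a27, Slc22a28 and Slc22a29 lie between the last 2 of them. Slc22a8 and Slc22a6 follow, 186.1 kb beyond Slc22a30. Slc22a19 (OAT5) exchanges anionic steroid sulphates at the luminal membrane in rodents. The coding sequences of the run are the closest among the 36 pairs of the 9 genes: Slc22a19 and Slc22a30 were 77.8% identical, Slc22a19 and Slc22a26 75.9%, and Slc22a26 and Slc22a30 74.7%, while the other pairs lay between 60.4% and 66.4%. No 150-base window of the Slc22a19 or Slc22a26 transcript occurs in another gene's transcripts, but 25.1% of those of Slc22a30 also occur in Slc22a28, so the level of Slc22a30 is uncertain.

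Slc22a19 fell in libraries labelled 3XKO. Of the 8 genes tested there, 4 had positive log2 fold changes and 4 negative. The negative ones were Slc22a19 and, without a call in that fit, Slc22a6, Slc22a8 and Slc22a13. Slc22a19 had 93.8, 87.6 and 99.2 CPM in libraries labelled 3XKO, against 119.5, 120.0 and 108.9 CPM in controls. The groups do not overlap, as for 12.9% of all genes lower in this comparison. The log2 fold change was -0.31 (SE 0.06, 95% interval -0.44 to -0.18, adjusted p = 0.038), close to the threshold. It kept its size but not the call in the fit of all 24 libraries (-0.31, adjusted p = 0.22) and with the Y-linked covariate (-0.31, adjusted p = 0.056). Without single libraries, the value ran from -0.36 to -0.26 and the call was lost in 5 of 6 cases, all except without control replicate 3.

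Dmrt2 KO libraries had 101.5, 101.4 and 91.2 CPM of Slc22a19, against 113.6, 78.8 and 108.1 CPM in controls, with a log2 fold change of -0.03 (95% interval -0.38 to 0.32). Replicates 1 to 3 of Hmx3 Hmx2 KO had 104.4, 105.5 and 133.8 CPM, against 123.6, 119.0 and 125.8 CPM in controls. Replicates 4 to 6 had 79.2, 55.3 and 70.3 CPM, against 87.1, 71.5 and 70.9 CPM in controls. The level differed by table more than by genotype, since controls of the first table averaged 1.61 times those of the second without overlap.

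Slc22a26 was lower in the knockout libraries of all 4 tables. In libraries labelled 3XKO, the comparison it was picked from, it had 0.44, 0.36 and 0.48 CPM (43, 34 and 56 reads), against 3.16, 1.55 and 1.56 CPM in controls (344, 166 and 170 reads). The fold was 0.205 of the control level, a log2 fold change of -2.29 (SE 0.31), given as a description. Leaving out single libraries gave -2.47 to -1.87, and the value nearest to 0 came without control replicate 1, the highest of the 3.

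In the Dmrt2 and Hmx3 Hmx2 lines, outside the comparison Slc22a26 was picked from, it was also lower in every knockout library than in every control of the same table. It had 1.68, 1.18 and 1.66 CPM in Dmrt2 KO libraries, against 2.16, 2.38 and 1.87 CPM in controls. The log2 fold change was -0.50 (SE 0.21, 95% interval -0.94 to -0.051, adjusted p = 0.35). In replicates 1 to 3 of the Hmx3 Hmx2 line it had 2.05, 1.86 and 2.83 CPM in knockouts, against 3.57, 3.29 and 4.04 CPM in controls. In replicates 4 to 6 it had 1.10, 1.05 and 0.77 CPM in knockouts, against 1.34, 1.13 and 1.20 CPM in controls, and 4.39% of all genes tested were lower without overlap in that table. Over both tables the log2 fold change was -0.53 (SE 0.14, 95% interval -0.84 to -0.23, unadjusted p = 0.0018, adjusted p = 0.91), with -0.69 in the first table alone and -0.33 in the second. Lower levels without overlap in all 3 of these tables were found for 3 of 18814 genes (0.0159%), which are Slc22a26, Micall2 and Gm3364, and the 2 others were named after their values were seen. In the single tables the shares were 7.71%, 4.61% and 4.39%. Whether 3 genes are more than unrelated tables would share was not tested, so the small share is not read as a result.

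The Dmrt2 and Hmx3 Hmx2 effects on Slc22a26 differed by 0.03 (95% interval -0.57 to 0.63, adjusted p = 1). The 3XKO effect minus the Dmrt2 effect was -1.79 and minus the Hmx3 Hmx2 effect -1.76, both without a test. With the Y-linked covariate the Dmrt2 KO value was -0.35 (adjusted p = 0.84) and the Hmx3 Hmx2 KO value -0.49 (adjusted p = 0.85). The level itself depended on the table: controls of replicates 1 to 3 averaged 3.63 ± 0.38 CPM and those of replicates 4 to 6 averaged 1.22 ± 0.11 CPM (SD, n = 3 each), 2.97 times as much in the first. Controls of the 2 tables did not overlap for 4 of the 9 genes, Slc22a8, Slc22a13, Slc22a19 and Slc22a26, each of them higher in the first, as 17.2% of the 19050 genes tested were. Libraries of the first table held 88.92% to 89.95% even counts among counts of 1 to 19, and those of the second 92.59% to 94.08%.

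The RefSeq window of Slc22a26 is shown beside that of its neighbour Slc22a19 because they are close relatives. They run at chr19:7802618-7802917 and chr19:7711261-7711560 on the minus strand of GRCm38.p6, and neither holds any of the motifs searched. Capitals mark their longest shared run, of 11 bases.
Slc22a26: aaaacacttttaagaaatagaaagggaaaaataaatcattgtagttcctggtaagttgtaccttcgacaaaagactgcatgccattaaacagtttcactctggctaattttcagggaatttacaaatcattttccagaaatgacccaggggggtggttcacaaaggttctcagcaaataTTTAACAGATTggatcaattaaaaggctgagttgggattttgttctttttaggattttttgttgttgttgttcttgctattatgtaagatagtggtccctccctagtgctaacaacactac
Slc22a19: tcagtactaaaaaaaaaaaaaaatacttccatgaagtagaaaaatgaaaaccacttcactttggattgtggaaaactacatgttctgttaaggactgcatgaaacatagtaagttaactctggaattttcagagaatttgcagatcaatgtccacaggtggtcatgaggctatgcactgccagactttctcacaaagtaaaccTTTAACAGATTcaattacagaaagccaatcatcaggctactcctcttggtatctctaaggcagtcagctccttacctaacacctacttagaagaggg
They were 69.8% identical over 258 paired bases. Slc22a19 and Slc22a30 reached 69.9% with a shared run of 13 bases.

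Slc22a30 had a positive log2 fold change in libraries labelled 3XKO, with 4.88, 6.37 and 7.56 CPM there, against 6.01, 3.86 and 3.80 CPM in controls. The groups overlap through control replicate 1, and the log2 fold change was 0.47 (SE 0.22, adjusted p = 0.30). It had 6.07, 6.44 and 5.29 CPM in Dmrt2 KO libraries, against 6.46, 5.28 and 5.83 CPM in controls. Hmx3 Hmx2 KO libraries ran from 3.99 to 6.496 CPM (median 5.30), against 4.54 to 7.47 CPM in controls (median 5.53). The 3XKO effect minus the Hmx3 Hmx2 effect was 0.55 (95% interval 0.032 to 1.07, adjusted p = 0.34).

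Slc22a2 (OCT2, chr17:12803019-12847375, plus strand), the basolateral cation transporter, had the narrowest span of the 9 over the 24 libraries, at 1.51-fold. Slc22a12 and Slc22a13 were close to it, at 1.54-fold each, and without the libraries labelled 3XKO Slc22a13 was narrower, at 1.497-fold. Slc22a2 had 87.4, 87.5 and 93.0 CPM in libraries labelled 3XKO, against 90.3, 93.7 and 77.8 CPM in controls. Dmrt2 KO libraries had 87.1, 85.3 and 69.4 CPM, against 72.9, 74.5 and 104.7 CPM in controls. Hmx3 Hmx2 KO libraries ran from 83.96 to 103.3 CPM (median 90.1), against 73.7 to 100.8 CPM in controls (median 81.0). The groups overlap in each comparison, and the log2 fold changes were 0.04 (95% interval -0.11 to 0.19) in libraries labelled 3XKO, -0.06 (-0.50 to 0.38) in Dmrt2 KO and 0.13 (-0.052 to 0.32) in Hmx3 Hmx2 KO.

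**Figure D3:**
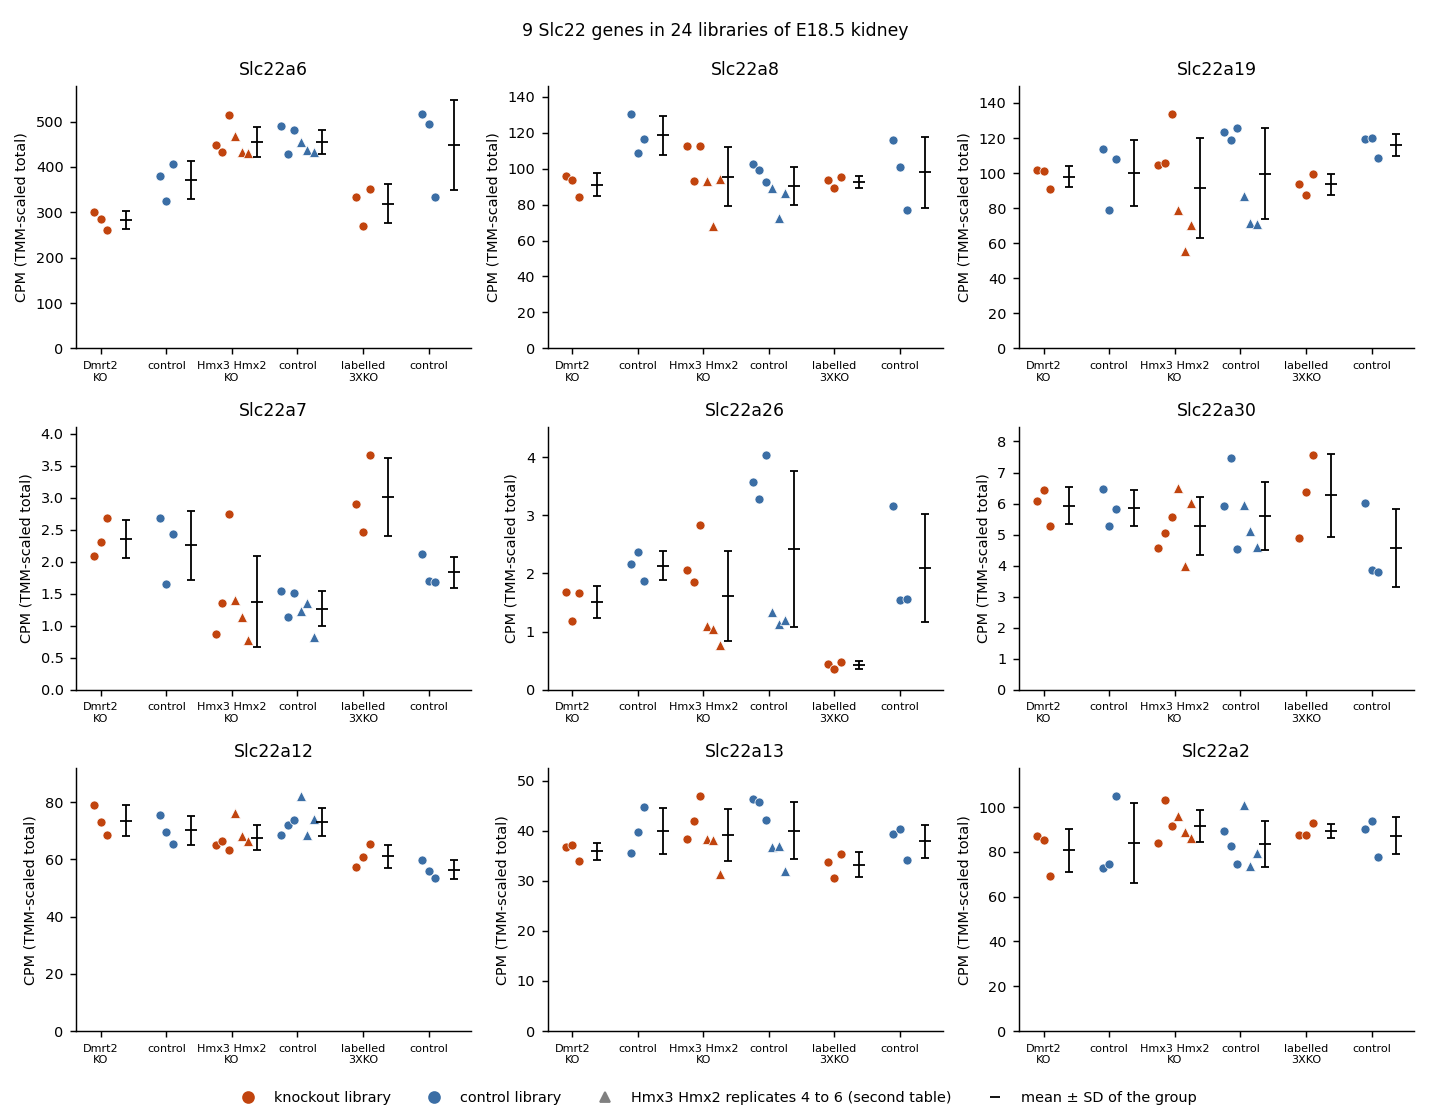
Level of each gene in CPM in every library, with knockouts at the left of their controls, triangles for replicates 4 to 6 of the Hmx3 Hmx2 line, and the mean and SD of each group as bars. Slc22a26 lies at 0.36 to 0.48 CPM in libraries labelled 3XKO, where it was picked for its low level, and Slc22a6 and Slc22a8 are lower in all 3 Dmrt2 KO libraries than in their controls.

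Of the 17 other Slc22a genes, 15 were tested in each comparison, and 0 were called in Dmrt2 KO, 0 in Hmx3 Hmx2 KO and 1 in libraries labelled 3XKO, where 0.444%, 0.021% and 1.03% of all genes were. The unadjusted p was under 0.05 for 1, 3 and 2 of them, against 12.3%, 4.93% and 17.9% of all genes. The called gene was Slc22a17, the lipocalin receptor gene, which rose to 82.8 ± 3.8 CPM in libraries labelled 3XKO, against 65.4 ± 1.1 CPM in controls (SD, n = 3 each; log2 fold change 0.35, SE 0.05, adjusted p = 0.016). Its 3XKO effect also differed from its Hmx3 Hmx2 effect, by 0.47 (adjusted p = 0.00088). Among the more abundant of the others per length were Slc22a17 (19.1 CPM per kilobase over 24 libraries), the carnitine transporter Slc22a5 (11.7) and Slc22a18 (9.76). Slc22a5 and Slc22a18 had log2 fold changes between -0.18 and 0.14 in the 3 comparisons. Slc22a16 and Slc22a20 held 6 and 18 reads in all 24 libraries and were not tested.

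Of 22 listed genes for organic ion transport in the proximal tubule, partners of these transporters, 21 were tested, with 0 called in each comparison and medians of -0.02, 0.02 and -0.04 in Dmrt2 KO, Hmx3 Hmx2 KO and libraries labelled 3XKO. The unadjusted p was under 0.05 for 3, 0 and 6 of them, against 12.3%, 4.93% and 17.9% of all genes. Slc13a3, which brings in the dicarboxylates that drive anion exchange, averaged 46.9 ± 6.9 CPM in libraries labelled 3XKO and 35.8 ± 4.5 CPM in controls (SD, n = 3 each; adjusted p = 0.19). The luminal cation exporter Slc47a1 (MATE1) averaged 139.4 ± 11.8 CPM in libraries labelled 3XKO and 120.5 ± 2.4 CPM in controls (adjusted p = 0.12). The urate exporter Abcg2 averaged 107.3 ± 3.6 CPM in libraries labelled 3XKO and 122.4 ± 3.0 CPM in controls (adjusted p = 0.092), and Slc17a1, a luminal phosphate and urate transporter, 51.0 ± 5.3 CPM against 64.4 ± 6.0 CPM (adjusted p = 0.12; SD, n = 3 each). Abcc2, Abcc4, Slc17a3 and the scaffold Pdzk1, which binds several Slc22 proteins, had log2 fold changes between -0.11 and -0.03 there.

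Among the 26 proximal tubule genes, the gluconeogenic Pck1 fell in Dmrt2 KO to 76.2 ± 15.1 CPM, against 230.5 ± 25.1 CPM in controls (SD, n = 3 each; log2 fold change -1.60, adjusted p = 0.040). The protease gene Napsa fell in libraries labelled 3XKO to 139.0 ± 2.5 CPM, against 177.5 ± 10.2 CPM in controls (SD, n = 3 each; log2 fold change -0.35, adjusted p = 0.016). Of these 26 genes 1, 0 and 1 were called in Dmrt2 KO, Hmx3 Hmx2 KO and libraries labelled 3XKO. The shares of all genes called were 0.444%, 0.021% and 1.03%. The unadjusted p was under 0.05 for 9, 2 and 10 of the 26, against 12.3%, 4.93% and 17.9% of all genes. List medians were -0.11, 0.03 and -0.16 in Dmrt2 KO, Hmx3 Hmx2 KO and libraries labelled 3XKO. The phosphate transporter Slc34a1 averaged 1184 ± 103 CPM in libraries labelled 3XKO and 1187 ± 149 CPM in controls, and the late-segment amino acid transporter Slc7a13 20.1 ± 3.3 CPM against 29.9 ± 2.7 CPM (SD, n = 3 each; adjusted p = 0.072). The endocytic receptors Lrp2 and Cubn had positive log2 fold changes in all 3 comparisons, up to 0.33 and 0.26, and were not called.

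On chromosome 19 lie 6 of the 9 genes, between 17.1 and 19.1 Mb from Dmrt2 itself, so their distance from the targeted locus was set beside the values. Within 1 Mb of either end of Slc22a26 lie 87 other genes, 4 of them among the 9. In Dmrt2 KO 60 of these were tested and 0 called, where 0.444% of all genes were, with a median log2 fold change of -0.07. For Hmx3 Hmx2 KO 59 were tested and 0 called, where 0.021% of all genes were, with a median of -0.03. For the libraries labelled 3XKO 62 were tested and 1 was called, Slc22a19, which was lower, where 1.03% of all genes were called. The median there was 0.02 and the range -1.01 to 1.74. Slc22a26 itself, at -2.29, was picked for its value in that comparison, so nothing is read from its place beside them.

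**Figure D4:**
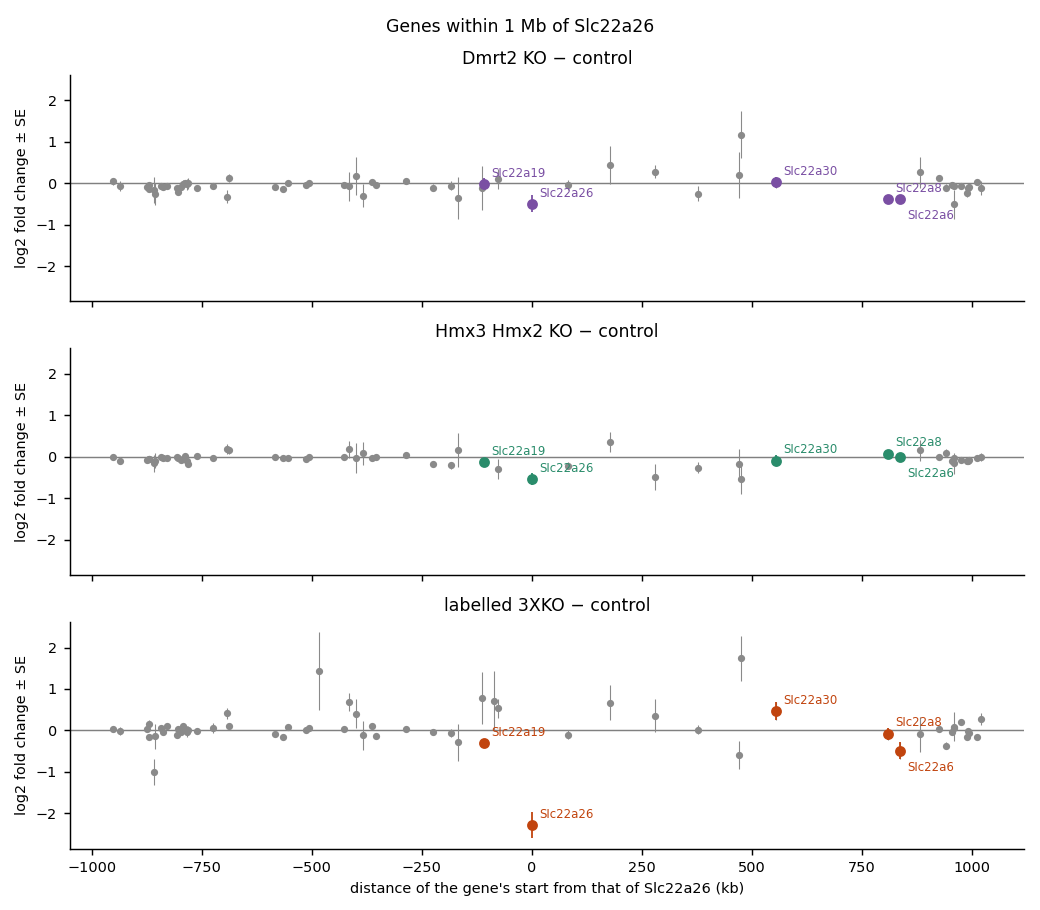
Log2 fold change and SE of each tested gene within 1 Mb of either end of Slc22a26, against the distance between the lower coordinates of the gene and of Slc22a26 in kb, in the Dmrt2 KO, Hmx3 Hmx2 KO and labelled-3XKO comparisons, with Slc22 genes of the set in colour. In libraries labelled 3XKO the neighbours lie between -1.01 and 1.74, and Slc22a26, which was picked for its value there, is at -2.29.

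The genes whose levels varied most like each member over the 24 libraries were looked up among 15039 genes, after the mean of each table was taken off. These correlations are descriptions, and libraries of a group share their genotype. Slc22a6 was most like Hsd17b2 (Pearson r = 0.92), Fbp1 (0.90) and Lpar3 (0.90). Slc22a8 was close to Ttr (0.81) and P2ry14 (0.80), and Slc22a19 like Fah (0.81), Sat1 (0.81) and Pdzk1 (0.80). Slc22a26 was most like Ly6e (0.84), Ube2l6 (0.80) and Inmt (0.79). Its values of r, also those with other members, include the libraries in which it was picked for its low level. They therefore partly restate that low level, and r without those libraries was not computed. For Slc22a2 the closest were Fmo5 (0.85), Iah1 (0.76) and Cyp2j11 (0.73), and for Slc22a7 Khk (0.83), Slc5a10 (0.81) and Tex15 (0.79). Slc22a12 was closest to Zscan26 (0.83), Tnnc1 (0.82) and Gm50103 (0.81), Slc22a13 to Ier3 (0.85), Rcan1 (0.83) and Cebpd (0.83), and Slc22a30 to Med20 (0.78), AI838599 (0.77) and Kifc2 (0.77). Between members, r was highest for Slc22a6 with Slc22a13 (0.71), with Slc22a26 (0.70) and with Slc22a8 (0.66), and lowest for Slc22a7 with Slc22a26 (-0.26).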

How the data were processed

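Bulk poly(A) RNA of whole embryonic kidney (embryonic day 18.5) was measured in 24 libraries, grouped by the sample titles. The authors deposited counts of reads per gene without normalization in 4 tables of 54393 genes. The submitters' processing notes name fastp 0.20.1, STAR 2.7.0e, featureCounts 2.0.1 and the build mm39, with featureCounts 2.0.3 given in the headers. Counting was over exons grouped by gene name, per the file headers, in paired mode, unstranded, by read and not by pair, and left out reads that map to several places or overlap several genes. Mates are counted separately, and between 87.94% and 94.08% of counts of 1 to 19 were even. No sample matches 2 columns, which were left out, and 0 rows lacked a gene name. The total per library is 52286824 to 127339273 reads, so 3 reads are worth 0.0236 to 0.0574 CPM. Counting error alone understates the error between kidneys.

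The main test was that of edgeR 4.0.16, run in R 4.3.3 (TMM, filterByExpr with a minimum count of 10 and a total of 15, robust quasi-likelihood F test, Benjamini-Hochberg over all genes, threshold 0.05). Each knockout was compared with controls of its own line, with the table as a term for Hmx3 Hmx2, and differences between effects were tested in a fit of all 24 libraries. SE is the absolute log2 fold change over the square root of F, and 95% intervals use the t quantile for the degrees of freedom of that test. The labels do not say that libraries came from separate embryos, so the p-values reflect only how these libraries vary, in part perhaps for technical reasons. Simulated counts with 100 genes changed by 1 on the log2 scale gave 93%, 96% and 90% recovered in Dmrt2 KO, Hmx3 Hmx2 KO and 3XKO. The same runs gave 16, 5 and 24 false calls. Changes under 1 were not simulated, and the Hmx3 Hmx2 counts held no difference between the tables, so recovery of smaller changes is not known. Replicate numbers did not pair the samples. Alternatives were DESeq2 1.42.0, no filter, RLE factors, the joint fit, a Y-linked covariate, a replicate block, each table alone and leaving out each library.

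All 9 members are named. Other Slc22a genes are named if called or among the 4 most abundant per length, list genes by a fixed short list or if called, and like genes as the 3 highest Pearson correlations of log2(CPM + 0.5), each with a mean of at least 1 CPM. A few genes that these rules name are not reported here. The members and lists were chosen with earlier results of these data known. Coordinates are those of the deposited tables. Promoters are from RefSeq (GRCm38.p6). Transcripts and coding sequences are from GENCODE vM21, where the longest coding sequence of each gene was aligned.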

Additional observations from a re-analysis of the deposited data

Results flagged for a closer look

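Slc22a7 stood apart in 1 library. It had 2.74 CPM (154 reads) in Hmx3 Hmx2 KO replicate 3, while the 5 other libraries of the group lay between 0.77 and 1.40 CPM. The gap to the next library was 0.681 of the range of the group, above Dixon's limit for 6 libraries. Of the 18 groups of 6 libraries examined (9 genes in knockouts and in controls), 1 was past this limit, and chance alone passes it in about 5% of groups. Without that library the log2 fold change of Slc22a7 in Hmx3 Hmx2 KO was -0.18, against 0.10 with it, and neither was called.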

How the results depend on the processing

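Over 405 values of the members' log2 fold changes under the alternatives, 350 kept direction and side of the threshold, 12 newly passed it, 8 no longer did and 35 changed sign. In Dmrt2 KO, DESeq2 called 2 members and the fit without a filter 2 (Slc22a6 and Slc22a8), and leaving out single libraries gave 0 to 2. In 3XKO, DESeq2 called 2 (Slc22a19 and Slc22a7), no filter 3, the Y-linked covariate 0, and leaving out single libraries 0 to 2. The joint fit called 1 there, Slc22a6 in place of Slc22a19. Leaving out single libraries gave 0 to 1 for the differences between effects, and DESeq2 1. Each alternative gave 0 in Hmx3 Hmx2 KO. With the replicate block, 1 member was called in Dmrt2 KO (Slc22a8, -0.38, adjusted p = 0.044) and 0 in 3XKO, where the block left 51 genes of all. Correlations of deviations between same-numbered libraries ran from -0.375 to 0.305, so these numbers are not taken as pairs.

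Among all genes, 88 were called in Dmrt2 KO, against 417 with DESeq2, 676 without a filter, 13 with the Y-linked covariate and 26 to 195 without single libraries. In 3XKO 222 were called, against 1034, 1510 and 573 with DESeq2, no filter and the joint fit and 20 to 438 without single libraries. For Hmx3 Hmx2 KO 4 were called, against 2 in each table alone.

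Changes of sign concerned values near 0. With the Y-linked covariate in Dmrt2 KO, the log2 fold change was 0.046 for Slc22a2, -0.092 for Slc22a7 and 0.026 for Slc22a19. For Hmx3 Hmx2 KO, Slc22a6 had 0.00092 with DESeq2, 0.0012 with RLE factors, 0.0017 in the joint fit and 0.019 with the Y-linked covariate. In replicates 4 to 6 alone, Slc22a6 had 0.0036, Slc22a7 -0.052, Slc22a13 0.024 and Slc22a30 0.073. Without single Dmrt2 libraries, values ran from -0.15 to 0.12 for Slc22a2, -0.12 to 0.21 for Slc22a7, -0.18 to 0.072 for Slc22a19 and -0.057 to 0.10 for Slc22a30. Without single Hmx3 Hmx2 libraries they ran from -0.035 to 0.018 for Slc22a6, -0.18 to 0.23 for Slc22a7, -0.058 to 0.0070 for Slc22a13 and -0.17 to 0.016 for Slc22a30. Without single 3XKO libraries they ran from -0.043 to 0.086 for Slc22a2 and -0.23 to 0.056 for Slc22a8. The cause of these changes was not tested. With total counts in place of TMM totals, 54 of 54 group means stayed within 1 SD. Slc22a26 (34 to 344 reads per library) and Slc22a7 (40 to 426) are the least precisely measured.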

Other observations

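Between Slc22a26 and Slc22a30 lie 3 related transporter genes, Slc22a27, Slc22a28 and Slc22a29, described here after their values were seen. None was called in any of the comparisons. All of them had negative log2 fold changes in Hmx3 Hmx2 KO kidneys, -0.22 for Slc22a27 (SE 0.08), -0.48 for Slc22a28 (SE 0.31) and -0.27 for Slc22a29 (SE 0.13), each with an adjusted p of 0.94. In libraries labelled 3XKO they were at -0.10, 0.36 and 0.02, while Slc22a26, which lies between them and Slc22a19, was at -2.29, the value it was picked for. Slc22a28, the gene that shares sequence with Slc22a30, differed most between libraries of 1 group. It had 1.45, 4.54 and 2.06 CPM in Hmx3 Hmx2 KO replicates 1 to 3, against 4.26, 6.70 and 5.80 CPM in their controls, and 6.59, 4.46 and 5.97 CPM in knockout replicates 4 to 6, against 6.19, 5.49 and 4.49 CPM in theirs.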
